A study of Mus musculus with 12 samples.

Results

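Transcripts of 31 genes of the insulin signalling pathway were followed across 4 trans-fat diets in mouse visceral adipose tissue. The genes run from the insulin receptor to the TSC and mTOR complexes and were taken from a list of names. A probe set, the group of probes that reads 1 stretch of a transcript, counted for a gene when the platform annotation named that gene and no other. All 31 genes were measured, out of 20358 genes in the whole table, by 577 of its 241576 probe sets, and a gene had between 1 probe set (Irs2) and 59 (Mtor), with a median of 16. The log2 intensities of a gene's probe sets were summarised by their median on each array, so different transcripts of a gene were not separated. Each gene is compared with itself across diets, since the brightness of a probe set is not comparable between genes.

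The tissue came from 20-week-old male C57Bl/6J mice, an inbred laboratory strain. Every diet held trans fat (TFA), from shortening at 20% w/w, which brought trans fatty acids to 8.68% w/w. TFA without additives was the control. In the drinking water the 3 other groups had monosodium glutamate at 0.75 g/L (MSG+TFA), aspartame at 0.25 g/L (ASP+TFA) or both at these doses (ASP+MSG+TFA). The dams were on the diet from 6 weeks of age for 3 weeks before mating, and stayed on it through gestation and nursing. Offspring were weaned onto the same diet at 4 weeks. According to the study, the mice had fasted overnight when the tissue was taken. There were 3 arrays per diet and 12 in all. By the study's methods, RNA from several mice was pooled for each array and the tissue combined epididymal, reproductive, omental and mesenteric fat.

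Insulin binds a receptor tyrosine kinase, which phosphorylates docking proteins of the IRS family and the adaptor Shc1. IRS proteins recruit PI3-kinase, whose lipid product brings the kinases PDK1 and Akt to the membrane. In adipocytes active Akt releases glucose transporter vesicles through the Rab regulator Tbc1d4, restrains the FoxO transcription factors and the GSK3 kinases, and relieves the brake that the TSC complex puts on mTOR complex 1. Much of this control is by phosphorylation and localisation, and the arrays measured transcript level only. In whole tissue, fewer cells of a type and less RNA per cell cannot be told apart.

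The 10 adipocyte markers, Adipoq, Lep and Plin1 among them, were all above the dim level and averaged between 12.47 and 12.76 on every array. The dim level, a log2 value of 6.61, was set from 1169 receptor genes of smell (symbols beginning with Olfr or Vmn), which have little signal in fat, as the 90th percentile of their means over arrays. The median of these receptor genes was between 6.40 and 6.76 on 4 arrays, replicates 1 and 2 of both TFA and MSG+TFA, and between 5.44 and 5.66 on the other 8 arrays. The former 4 are called the raised arrays below. No array of either aspartame diet was raised, so a difference between aspartame and other diets can be taken without the raised arrays only against TFA replicate 3 and MSG+TFA replicate 3, 1 array per diet. The 8 macrophage markers averaged 9.26 in TFA, 9.80 in MSG+TFA, 9.65 in ASP+TFA and 10.12 in ASP+MSG+TFA, with a range over arrays of 9.00 to 10.33. Markers of other organs differed between arrays within a diet. The 8 epididymis markers averaged 5.46 to 12.95, and the pancreas markers reached 11.23 on TFA replicate 2.

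Of the insulin signalling genes, 30 had a mean above the dim level and Socs3 had not. The span of a gene over the 12 arrays ran from 0.30 log2 units for Rps6kb1, the S6 kinase below mTOR complex 1, to 3.02 for Igf1r. The plot of every gene on every array shows that the low values of most genes fell on the 4 raised arrays. Grb2 and Socs3 ran the other way, and so did Rheb to a smaller extent.

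**Figure D1:**
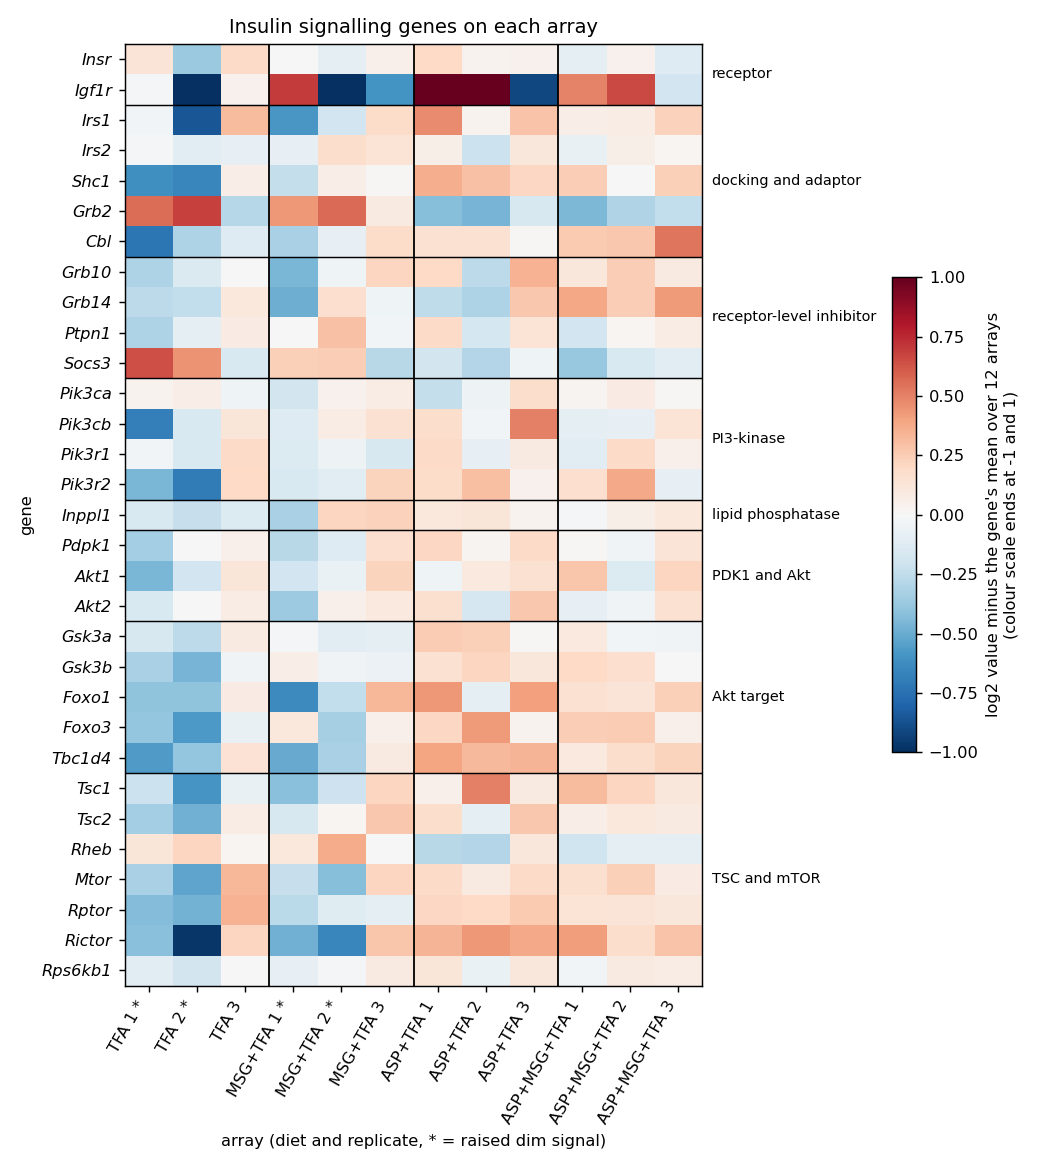
Log2 value of each of the 31 genes on each of the 12 arrays, minus the gene's mean over the arrays, with genes in pathway order and arrays grouped by diet. A star marks the 4 raised arrays, on which most genes were below their mean and Grb2, Socs3 and Rheb were above it.

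Aspartame diets were set against the diets without it by taking the mean of ASP+TFA and ASP+MSG+TFA minus the mean of TFA and MSG+TFA, 6 arrays each, which is called the aspartame difference. Across the 31 genes it had a median of 0.21 log2 units, and 27 genes were above 0. The threshold for a call was an adjusted p under 0.05 in limma, with Benjamini-Hochberg adjustment over all 20358 genes, together with a difference of at least 1.4-fold. Called were Tbc1d4, which was higher, and Grb2, which was lower, so 2 of 31 genes, beside 7.63% of all genes. At an unadjusted p under 0.05, 9 of the 31 genes were higher, where 11.6% of all genes were, and 3 were lower, where 25.0% of all genes were. All of the 31 but Socs3 were above the dim level. Of the 11533 genes above it, 2064 were higher and 956 lower at that p, and 438 were called. No gene of the 31 had all arrays of the aspartame diets on one side of all others, as 0.968% of all genes had upwards and 2.89% downwards. Above the dim level 175 genes had this upwards and 104 downwards. Over the 11533 genes above the dim level the median of the aspartame difference was 0.12, with 69.3% of them above 0, and over all genes it was -0.02.

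Most of the 31 genes were lower on the raised arrays than on the other array of the same diet. Within TFA and MSG+TFA, the difference of raised minus other arrays had a median of -0.28 log2 units over the 31 genes, with 28 below 0, and of 0.01 over all genes. In limma with diet in the fit and an adjusted p under 0.05, 9 of the 31 genes were lower on raised arrays (12.7% of all genes) and 2 were higher (21.1% of all genes). The 9 were Irs1, Pik3r2, Akt1, Foxo1, Tbc1d4, Tsc2, Mtor, Rptor and Rictor, and the 2 were Grb2 and Socs3. The shares and the median beside these are over all genes, and those of genes above the dim level were not taken. Values spread less on the raised arrays, where the interquartile range of all genes was 2.19 to 2.39, against 2.95 to 3.12 on the others. A shift shared by bright genes is therefore not told apart here from one of the 31 genes. Over the 8 arrays that were not raised the aspartame difference of the 31 genes had a median of 0.004, with 17 above 0, no gene called and none at an unadjusted p under 0.05, where 0% and 5.20% of all genes were. The aspartame difference of each gene below is therefore followed by its value over these 8 arrays.

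**Figure D2:**
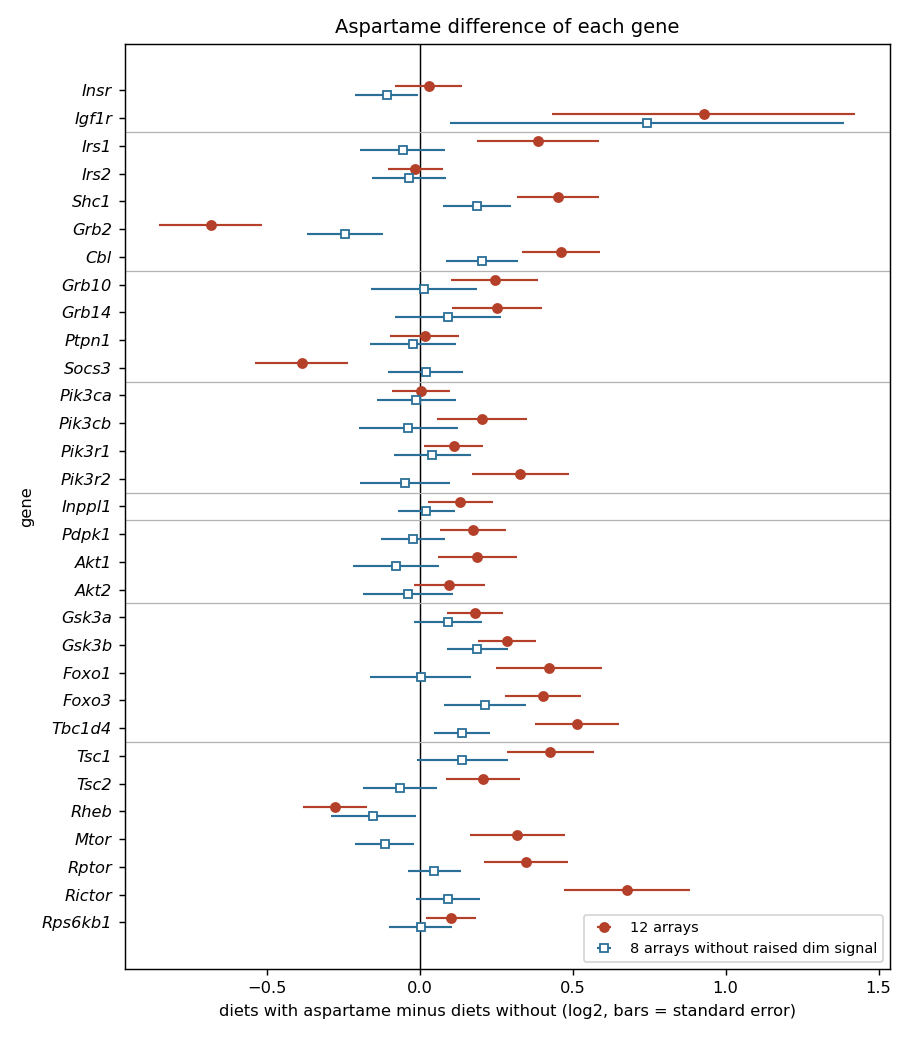
Aspartame difference (log2 units) with its standard error for each of the 31 genes in pathway order, over all 12 arrays and over the 8 arrays that were not raised. Over 12 arrays 27 genes lie above 0 with a median of 0.21, and over 8 arrays 17 genes do with a median of 0.004.

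At the receptor step no gene passed the test. Insr, the insulin receptor, was 10.07, 9.57 and 10.13 on the 3 TFA arrays, 9.93, 9.85 and 9.99 with MSG+TFA, 10.14, 9.97 and 9.98 with ASP+TFA, and 9.84, 9.98 and 9.81 with ASP+MSG+TFA. The diets overlapped, and the aspartame difference was 0.03 ± 0.11 (SE), with a 95% interval from -0.21 to 0.27, and -0.11 ± 0.10 over the 8 arrays. Igf1r, the related receptor for insulin-like growth factor 1, was singled out after its values were seen, for its wide span. It was 8.56, 7.01 and 8.61 in TFA, 9.27, 7.21 and 7.97 in MSG+TFA, 9.85, 10.03 and 7.66 in ASP+TFA, and 9.06, 9.23 and 8.38 in ASP+MSG+TFA. The lowest array of every diet was the one on which Crisp1, a secreted protein of the epididymis, was low (5.60 to 6.50, against 12.43 to 13.85 on the other 8 arrays). The part of epididymal RNA in the Igf1r values was not tested. Its aspartame difference of 0.93 ± 0.50 did not pass the test (limma, adjusted p = 0.195), and was 0.74 ± 0.64 over the 8 arrays.

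Among the docking proteins and adaptors, Shc1, Grb2 and Cbl had an unadjusted p under 0.05 in the aspartame difference, and Irs1 and Irs2 had not. Irs1, a docking protein for PI3-kinase, was 8.88, 8.05 and 9.23 in TFA, 8.33, 8.72 and 9.09 in MSG+TFA, 9.38, 8.95 and 9.19 in ASP+TFA and 8.98, 8.98 and 9.14 in ASP+MSG+TFA. The diets overlapped, with an aspartame difference of 0.39 ± 0.20 over 12 arrays and -0.06 ± 0.14 over the 8 arrays. Irs2, the other main docking protein, was measured by a single probe set and lay between 8.67 and 9.07 on all arrays, with an aspartame difference of -0.01 ± 0.09 over 12 arrays and -0.03 ± 0.12 over the 8 arrays. Shc1, the adaptor that opens the Ras branch, was 8.19, 8.15 and 8.86 in TFA, 8.56, 8.86 and 8.81 in MSG+TFA, 9.16, 9.09 and 9.00 in ASP+TFA and 9.05, 8.80 and 9.04 in ASP+MSG+TFA. All ASP+TFA arrays were above all TFA arrays. The aspartame difference of Shc1 was 0.45 ± 0.13 (limma, adjusted p = 0.0525), and 0.19 ± 0.11 over the 8 arrays.

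Grb2, the adaptor that carries the Ras exchange factor to Shc1 and IRS proteins, was the gene of the 31 that was called lower. Its values were 8.37, 8.50 and 7.53 in TFA, 8.25, 8.38 and 7.91 in MSG+TFA, 7.39, 7.35 and 7.65 in ASP+TFA, and 7.36, 7.52 and 7.57 in ASP+MSG+TFA. The high values were those of the 4 raised arrays, and TFA replicate 3 lay within the range of the aspartame diets. The aspartame difference was -0.68 ± 0.17, a 1.605-fold lower level (limma, adjusted p = 0.0483). Over the 8 arrays it was -0.24 ± 0.12 (limma, adjusted p = 0.894), and the raised arrays were higher than the others of their diet by 0.66 ± 0.14 (adjusted p = 0.00687). The gene had 5 probe sets, 3 of which were above the dim level, and 3 of the 5 were higher in the aspartame diets. The call therefore turned with the summary used, since the mean over probe sets gave 0.02 and the brightest probe set 0.38.

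Cbl, a ubiquitin ligase that the insulin receptor phosphorylates in adipocytes, was 8.30, 8.71 and 8.89 in TFA, 8.69, 8.93 and 9.20 in MSG+TFA, 9.17, 9.17 and 9.03 in ASP+TFA and 9.28, 9.28 and 9.55 in ASP+MSG+TFA. All arrays of both aspartame diets were above all TFA arrays, and those of ASP+MSG+TFA were also above all MSG+TFA arrays. With aspartame it was higher by 0.46 ± 0.13, with an adjusted p of 0.0494 in limma, but at 1.377-fold it was under the fold limit and was not called. Over the 8 arrays it was 0.20 ± 0.12. The brightest of its 17 probe sets gave -0.04, and 10 of the 17 were higher in the aspartame diets.

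At the receptor-level inhibitors, Socs3, which blocks the receptor and targets IRS proteins for degradation, was 7.13, 6.94 and 6.34 in TFA, 6.72, 6.74 and 6.21 in MSG+TFA, 6.30, 6.19 and 6.44 in ASP+TFA and 6.11, 6.33 and 6.39 in ASP+MSG+TFA. Its mean was below the dim level, and the arrays above that level were the 4 raised ones. Its aspartame difference was -0.39 ± 0.15 over 12 arrays (limma, adjusted p = 0.0989) and 0.02 ± 0.12 over the 8 arrays. Grb14, which binds the active receptor and inhibits its kinase, was 6.75, 6.76 and 7.12 in TFA, 6.52, 7.18 and 6.97 in MSG+TFA, 6.75, 6.70 and 7.28 in ASP+TFA and 7.40, 7.25 and 7.43 in ASP+MSG+TFA. All 3 arrays of the diet with both additives were above all arrays without aspartame. The difference from TFA was 0.48 ± 0.21 (limma, adjusted p = 0.158). Grb10, a relative of Grb14, and Ptpn1, the phosphatase that removes receptor phosphate, had aspartame differences of 0.25 ± 0.14 and 0.02 ± 0.11. The aspartame difference of Grb14 was 0.09 ± 0.17 over the 8 arrays, that of Grb10 0.01 ± 0.17 and that of Ptpn1 -0.02 ± 0.14.

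**Figure D3:**
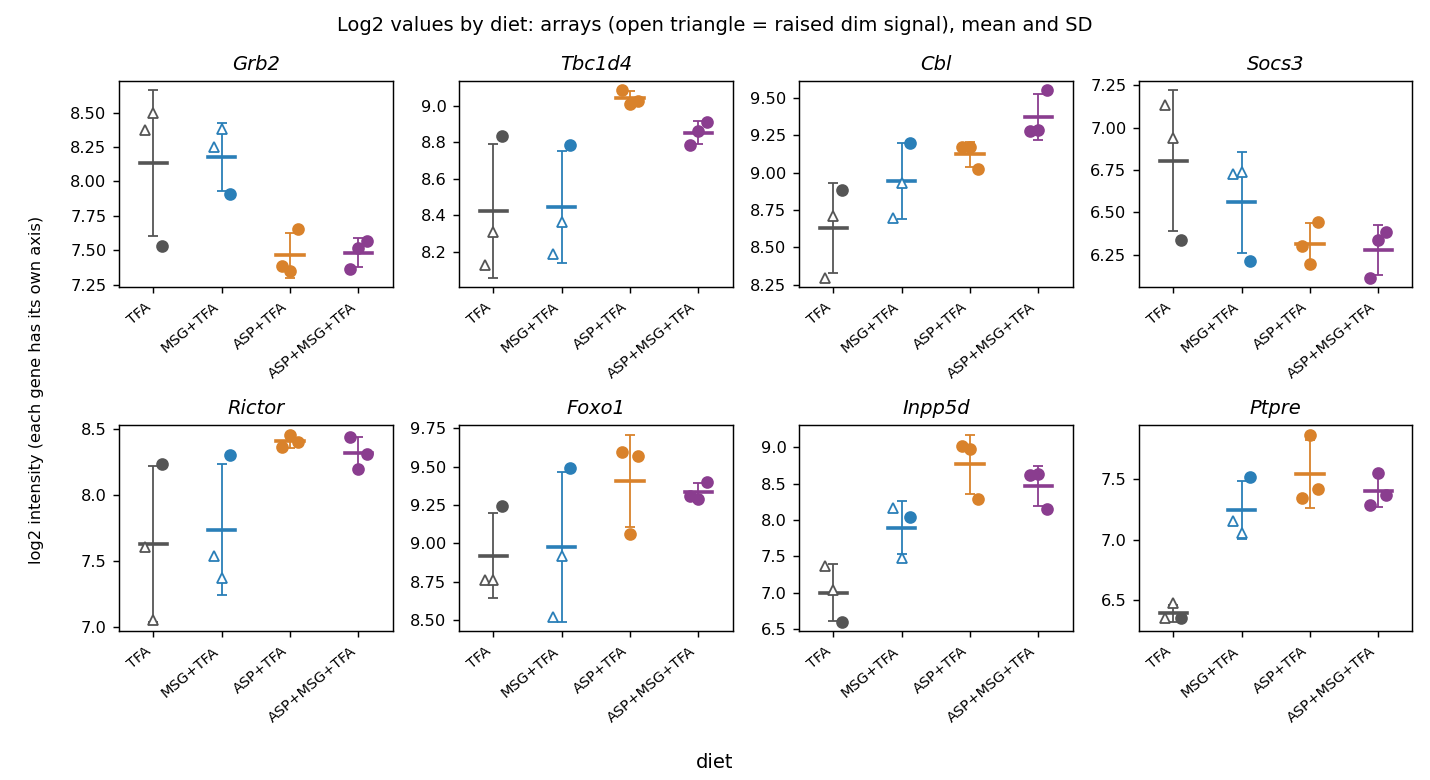
Log2 value on each array by diet for Grb2, Tbc1d4, Cbl, Socs3, Rictor and Foxo1 and for Inpp5d and Ptpre of the wider pathway, with the mean and SD of 3 arrays per diet and open triangles for the 4 raised arrays. For Tbc1d4 and Rictor the open triangles are the lowest values, and for Grb2 and Socs3 they are the highest.

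None of the 4 PI3-kinase genes passed the test in any contrast. Pik3r1, the main regulatory subunit, averaged 11.30 ± 0.17 (SD, n = 3) in TFA, 11.18 ± 0.06 in MSG+TFA, 11.36 ± 0.14 in ASP+TFA and 11.34 ± 0.15 in ASP+MSG+TFA. Of the 4 genes of the step, Pik3r2, another regulatory subunit, had the largest aspartame difference (0.33 ± 0.16) and the catalytic subunit gene Pik3ca the smallest (0.004 ± 0.094). On the 8 arrays the difference was -0.01 ± 0.13 for Pik3ca, -0.04 ± 0.16 for Pik3cb, the other catalytic subunit gene, 0.04 ± 0.13 for Pik3r1 and -0.05 ± 0.15 for Pik3r2. Inppl1, which encodes the lipid phosphatase SHIP2 that removes a phosphate from the PI3-kinase product, was between 7.97 and 8.06 on TFA arrays and between 8.23 and 8.32 on ASP+TFA arrays. These groups did not overlap, yet the difference of 0.26 ± 0.15 had an adjusted p of 0.302 in limma. The aspartame difference of Inppl1 was 0.02 ± 0.09 over the 8 arrays.

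PDK1 and Akt did not pass the test in any contrast. Akt1 was 9.18, 9.44 and 9.75 in TFA, 9.44, 9.56 and 9.86 in MSG+TFA, 9.59, 9.73 and 9.79 in ASP+TFA and 9.91, 9.50 and 9.85 in ASP+MSG+TFA. Its aspartame difference was 0.19 ± 0.13 over 12 arrays and -0.08 ± 0.14 over the 8 arrays. Akt2, the isoform known for insulin-stimulated glucose uptake in fat, averaged 11.65 ± 0.12 in TFA, 11.60 ± 0.25 in MSG+TFA, 11.76 ± 0.23 in ASP+TFA and 11.69 ± 0.12 in ASP+MSG+TFA (SD, n = 3), with an aspartame difference of 0.10 ± 0.12. Pdpk1, which encodes PDK1, had a difference of 0.18 ± 0.11. For Akt2 it was -0.04 ± 0.15 over the 8 arrays, and for Pdpk1 -0.02 ± 0.10.

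Among the 5 Akt targets all were above 0 in the aspartame difference, with a median of 0.40, and Tbc1d4 was called. Tbc1d4, the Rab GTPase-activating protein also known as AS160 that holds glucose transporter vesicles inside the cell until Akt acts on it, was 8.13, 8.31 and 8.84 in TFA, 8.18, 8.37 and 8.78 in MSG+TFA, 9.09, 9.01 and 9.03 in ASP+TFA and 8.79, 8.86 and 8.91 in ASP+MSG+TFA. All arrays of ASP+TFA were above all arrays without aspartame, while TFA replicate 3 lay within the range of ASP+MSG+TFA. The aspartame difference was 0.51 ± 0.14, a 1.43-fold higher level (limma, adjusted p = 0.0487), and 18 of the 23 probe sets were higher. Over the 8 arrays it was 0.14 ± 0.09 (limma, adjusted p = 0.894). The raised arrays were lower than the others of their diet by 0.56 on the log2 scale (difference -0.56 ± 0.10, adjusted p = 0.00264).

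Foxo1, a transcription factor that Akt keeps out of the nucleus, was 8.76, 8.76 and 9.24 in TFA, 8.52, 8.92 and 9.49 in MSG+TFA, 9.59, 9.06 and 9.57 in ASP+TFA and 9.31, 9.29 and 9.40 in ASP+MSG+TFA. The low values were on the raised arrays. With aspartame it differed by 0.42 ± 0.17 (limma, adjusted p = 0.110) and 0.003 ± 0.164 over the 8 arrays. Foxo3, its relative, was 8.12, 7.93 and 8.43 in TFA, 8.61, 8.17 and 8.56 in MSG+TFA, 8.71, 8.93 and 8.54 in ASP+TFA and 8.75, 8.76 and 8.56 in ASP+MSG+TFA, so that every TFA array was below every array of both aspartame diets. Its aspartame difference was 0.40 ± 0.12 (limma, adjusted p = 0.0562), and 0.21 ± 0.13 over the 8 arrays. Gsk3b, a kinase that restrains glycogen synthase, lay between 9.67 and 10.10 in TFA and between 10.14 and 10.35 in the aspartame diets, again with no overlap. Its aspartame difference was 0.29 ± 0.09 (limma, adjusted p = 0.0642) and that of its relative Gsk3a was 0.18 ± 0.09. These were 0.19 ± 0.10 and 0.09 ± 0.11 over the 8 arrays.

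In the TSC and mTOR group 6 of 7 genes were above 0 in the aspartame difference, with a median of 0.32 and no call. Rictor, the subunit that defines mTOR complex 2, the kinase of Akt, was 7.60, 7.05 and 8.23 in TFA, 7.54, 7.37 and 8.30 in MSG+TFA, 8.36, 8.46 and 8.40 in ASP+TFA and 8.44, 8.20 and 8.31 in ASP+MSG+TFA. The 4 raised arrays held the 4 lowest values, and replicate 3 of TFA and of MSG+TFA lay within the range of the aspartame arrays. Over 12 arrays the aspartame difference was 0.68 ± 0.21 (limma, adjusted p = 0.0557), and 0.09 ± 0.10 over the 8 arrays. Rptor, the defining subunit of mTOR complex 1, was 7.68, 7.64 and 8.47 in TFA, 7.84, 8.00 and 8.02 in MSG+TFA, 8.32, 8.32 and 8.38 in ASP+TFA and 8.26, 8.24 and 8.23 in ASP+MSG+TFA. TFA replicate 3 was the highest array, and the aspartame difference was 0.35 ± 0.14 (limma, adjusted p = 0.0971) over 12 arrays and 0.05 ± 0.09 over the 8 arrays.

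Mtor, the kinase of both complexes, was 8.51, 8.31 and 9.17 in TFA, 8.60, 8.41 and 9.05 in MSG+TFA, 9.03, 8.93 and 9.03 in ASP+TFA and 8.99, 9.08 and 8.92 in ASP+MSG+TFA. Here too the raised arrays held the 4 lowest values, and the aspartame difference of 0.32 ± 0.16 became -0.11 ± 0.10 over the 8 arrays. Tsc1, which stabilises the TSC complex, was 7.38, 7.01 and 7.53 in TFA, 7.18, 7.39 and 7.82 in MSG+TFA, 7.65, 8.10 and 7.69 in ASP+TFA and 7.91, 7.81 and 7.71 in ASP+MSG+TFA. All TFA arrays were below all aspartame arrays, and the aspartame difference was 0.43 ± 0.14 (limma, adjusted p = 0.0658) over 12 arrays and 0.14 ± 0.15 over the 8 arrays. The brightest probe set of Tsc1 gave -0.48. Rheb, the GTPase that activates mTOR complex 1, averaged 11.41 ± 0.10 in TFA, 11.45 ± 0.19 in MSG+TFA, 11.14 ± 0.23 in ASP+TFA and 11.16 ± 0.06 in ASP+MSG+TFA (SD, n = 3). It was lower by -0.28 ± 0.10 (limma, adjusted p = 0.0877), and by -0.15 ± 0.14 over the 8 arrays. Tsc2, the catalytic part of the TSC complex, and Rps6kb1 had differences of 0.21 ± 0.12 and 0.10 ± 0.08, and of -0.06 ± 0.12 and 0.004 ± 0.103 over the 8 arrays.

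Promoters are shown for the 2 called genes and for Cbl, which had an adjusted p under 0.05 but missed the fold limit. Each is RefSeq sequence of build GRCm38.p6, read on the gene's strand from 250 bases before to 50 bases after the start site, with capitals marking matches to 3 motifs, the GC box (GGGCGG or CCGCCC), the CCAAT box (CCAAT or ATTGG) and the TATA box (TATAAA or TTTATA). The Tbc1d4 window lies at chr14:101609142-101609441, minus strand, with 55.7% G and C and 1 GC box. The Cbl window lies at chr9:44233997-44234296, minus strand, with 74.0% G and C and 4 GC boxes, of which the first 2 share a stretch. For Grb2, the start site furthest upstream of 2 has its window at chr11:115699879-115700178, minus strand, with 46.7% G and C, 1 CCAAT box and 1 TATA box.
Tbc1d4: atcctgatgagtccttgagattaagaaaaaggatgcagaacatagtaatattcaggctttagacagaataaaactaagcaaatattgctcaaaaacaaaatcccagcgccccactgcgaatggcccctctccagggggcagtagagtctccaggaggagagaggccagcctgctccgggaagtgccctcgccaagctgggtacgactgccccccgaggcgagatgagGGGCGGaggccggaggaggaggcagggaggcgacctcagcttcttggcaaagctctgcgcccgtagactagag
Cbl: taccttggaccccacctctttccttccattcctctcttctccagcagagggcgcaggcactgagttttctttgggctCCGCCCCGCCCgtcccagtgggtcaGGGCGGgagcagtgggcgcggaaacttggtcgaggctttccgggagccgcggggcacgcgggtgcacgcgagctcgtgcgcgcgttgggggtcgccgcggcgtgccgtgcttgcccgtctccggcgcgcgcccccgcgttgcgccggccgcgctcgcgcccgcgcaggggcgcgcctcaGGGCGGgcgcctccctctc
Grb2: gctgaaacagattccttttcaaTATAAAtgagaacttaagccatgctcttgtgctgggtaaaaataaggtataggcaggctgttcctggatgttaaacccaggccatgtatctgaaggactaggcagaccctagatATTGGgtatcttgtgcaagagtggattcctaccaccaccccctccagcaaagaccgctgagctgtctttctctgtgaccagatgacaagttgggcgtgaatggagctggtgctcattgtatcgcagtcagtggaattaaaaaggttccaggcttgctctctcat

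A window was given for 30 of the 31 genes, and none for Insr. The GC box was found for 24 of the 30 genes and in 62.5% of their 40 windows, against 35.7% of all 32851 windows of this length. The CCAAT box was in 37.5% of the windows against 37.4% of all, and the TATA box in 7.5% against 13.6%. The TATA box matched for Grb2, Gsk3b and Pik3r1. The core motif of FoxO factors (GTAAACA or TGTTTAC) was in 2.5% of the windows, for Akt1 alone, against 3.65% of all.

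MSG alone moved none of the 31 genes past the test. In MSG+TFA minus TFA the 31 genes had a median of 0.06, from -0.25 for Socs3 to 0.34 for Shc1, with 26 above 0. Genes above the dim level had a median of 0.03, with 57.5% of them above 0, and all genes had a median of -0.02. None was called (0% of all genes) and none had an unadjusted p under 0.05, where 1.09% of all genes were higher and 1.06% lower. For no gene were the arrays of both diets apart, as they were upwards for 2.06% and downwards for 2.53% of all genes. The 95% interval of the Shc1 difference ran from -0.07 to 0.76. With replicate number as a block none of the 31 was called and 0 had an unadjusted p under 0.05 (2.68% of all genes), and with the raised arrays as a term in the fit 4 had (6% of all genes), none of them called. Within the raised arrays, 2 per diet, the median was 0.10 with 23 above 0, and between the other arrays, 1 per diet, it was 0.02 with 17 above 0.

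In ASP+TFA minus TFA the median was 0.28, with 27 of 31 genes above 0, against a median of 0.13 over the genes above the dim level, 67.7% of them above 0. At an unadjusted p under 0.05, 7 genes were higher (6.94% of all genes) and 2 were lower (15.7% of all genes), and none was called (0%), the lowest adjusted p in limma being 0.186. Of the 11533 genes above the dim level, 1241 were higher and 566 lower at that unadjusted p. Shc1 (0.69 ± 0.19), Cbl (0.49 ± 0.18), Gsk3b (0.44 ± 0.13), Foxo3 (0.57 ± 0.18), Tbc1d4 (0.62 ± 0.20), Tsc1 (0.51 ± 0.20) and Rictor (0.78 ± 0.29) were higher, and Grb2 (-0.67 ± 0.24) and Socs3 (-0.49 ± 0.22) lower. For these 7 and Inppl1 all ASP+TFA arrays were above all TFA arrays, so for 8 of 31 genes. The same held for 7.17% of all genes and for 1268 of the 11533 above the dim level. No gene was apart downwards, as 11.7% of all genes and 497 of those above the dim level were. Over the 8 arrays that were not raised the median was 0.05 with 19 above 0, none was called and none had an unadjusted p under 0.05, where 0% and 4.37% of all genes were.

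In ASP+MSG+TFA minus TFA the median was 0.30, with 27 of 31 above 0, and 0.13 over the genes above the dim level. At an unadjusted p under 0.05, 7 genes were higher (9.15% of all genes) and 2 lower (19.6% of all genes), with none called (0%) and a lowest adjusted p of 0.123 in limma. Of the 11533 genes above the dim level, 1634 were higher and 751 lower at that unadjusted p. The 7 were Shc1 (0.56 ± 0.19), Cbl (0.74 ± 0.18), Grb14 (0.48 ± 0.21), Gsk3b (0.40 ± 0.13), Foxo3 (0.53 ± 0.18), Tsc1 (0.51 ± 0.20) and Rictor (0.69 ± 0.29), and the 2 were Grb2 (-0.65 ± 0.24) and Socs3 (-0.53 ± 0.22). The arrays were apart upwards for 8 genes (13.7% of all genes) and downwards for Rheb (17.9%). Above the dim level they were apart upwards for 2468 genes and downwards for 997. Over the 8 arrays the median was 0.02 with 16 above 0, with none called (0%) and Cbl alone at an unadjusted p under 0.05 (7.29% of all genes). All contrasts against TFA share the 3 TFA arrays, and the aspartame difference uses them too.

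One array moved these counts most. Without TFA replicate 3, the TFA array that was not raised, 13 of 31 genes were called in ASP+TFA minus TFA (26.6% of all genes), 12 in ASP+MSG+TFA minus TFA (29.7%) and 8 in the aspartame difference (26.6%). Without MSG+TFA replicate 3, 6 were called in the aspartame difference (23.4% of all genes). Leaving out any of the other 10 arrays gave no call there.

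The 2 diets with aspartame did not differ in any of the 31 genes at an unadjusted p under 0.05, where 0.810% of all genes were higher and 0.771% lower with both additives, and no gene of the table was called (0%). The median of ASP+MSG+TFA minus ASP+TFA was -0.04. Against MSG+TFA, ASP+MSG+TFA had a median of 0.13 with 24 genes above 0. Cbl (0.43 ± 0.18) and Grb14 (0.47 ± 0.21) were higher and Grb2 (-0.70 ± 0.24) lower at an unadjusted p under 0.05, as 3.09% and 12.6% of all genes were, with adjusted p from 0.310 to 0.314 in limma and none called (0%). Of the 11533 genes above the dim level, 491 were higher and 482 lower at that unadjusted p. The MSG difference over both pairs of diets had a median of 0.03 and no gene at an unadjusted p under 0.05 (1.66% of all genes higher, 1.18% lower, 0% called). The interaction of both additives had a median of -0.13, with 27 genes below 0 and none at an unadjusted p under 0.05 (0.604% of all genes higher, 0.619% lower, 0% called). In limma's F test over the 4 diets 7 of 31 genes had an unadjusted p under 0.05, beside 18.1% of all genes, and none an adjusted p under 0.05 (0%).

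**Figure D4:**
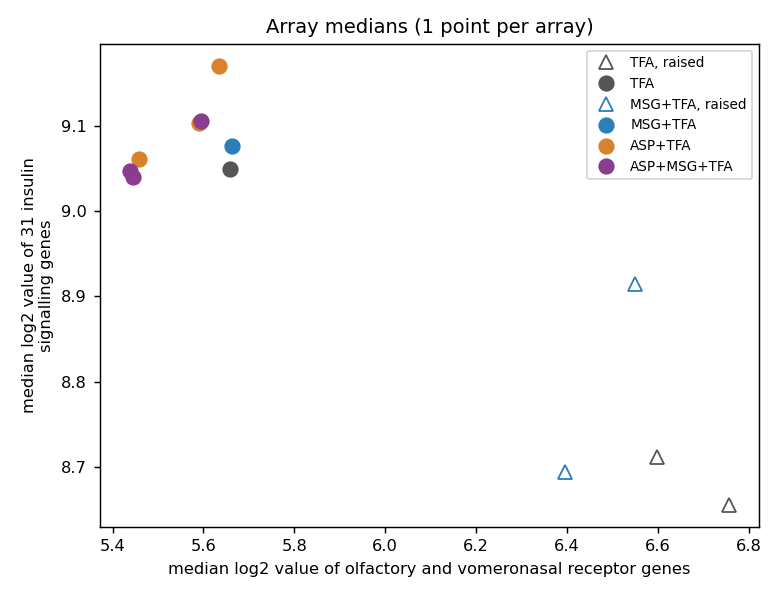
Median log2 value of the 31 genes on each array (vertical axis) against the median of the 1169 receptor genes on it (horizontal axis, log2), coloured by diet. The 4 raised arrays (6.40 to 6.76) hold the 4 lowest medians of the 31 genes, between 8.66 and 8.92, and the other 8 arrays lie between 9.04 and 9.17.

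Related genes, and partner subunits of the TSC and mTOR complexes, were compared by their aspartame differences in 10 pairs, with an exact two-sided permutation test that exchanged arrays between diets with and without aspartame within each MSG level (400 regroupings, smallest possible p 0.005). The difference was larger for Irs1 than for Irs2 by 0.40 (exact p = 0.05), for Rictor than for Rptor by 0.33 (exact p = 0.055) and for Gsk3b than for Gsk3a by 0.11 (exact p = 0.03). After adjustment over the 10 pairs the lowest p was 0.183, so no pair was shown to differ.

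Of 67 further genes of insulin signalling, 60 were measured and 7 were not analysed here. In the aspartame difference 6 of the 60 were called, 2 higher and 4 lower, beside 7.63% of all genes. At an unadjusted p under 0.05, 9 were higher, where 11.6% of all genes were, and 7 lower, where 25.0% were. The 4 that were called lower were Ins2, an insulin gene, Irs4, a docking protein, the GTPase Hras and the FoxO factor Foxo6. Ins2, Irs4 and Foxo6 had means below the dim level. Ins2 was 7.03, 7.43 and 6.62 in TFA, 6.84, 6.94 and 6.34 in MSG+TFA, 6.03, 5.85 and 6.28 in ASP+TFA and 6.19, 6.08 and 5.97 in ASP+MSG+TFA, and its aspartame difference was -0.80 ± 0.16 (limma, adjusted p = 0.0483). Without the raised arrays the difference was -0.41 ± 0.14 for Ins2, -0.20 ± 0.12 for Irs4, -0.42 ± 0.18 for Hras and -0.44 ± 0.17 for Foxo6, with an adjusted p of 0.894 for each. All 4 genes were higher on each of the 4 raised arrays than on the other arrays without aspartame, Hras being 7.88 to 8.15 on the former and 7.32 and 7.58 on the latter. For Ins2 and Hras every array without aspartame, raised or not, was above every array with it. These were 2 of the 60 genes, where 2.89% of all genes were apart in this way. Ins2 was called under 3 of 13 other settings, and the mean over probe sets gave -0.24. The highest Ins2 array, TFA replicate 2, also had the highest pancreas markers (11.23), where TFA replicate 1 and both raised MSG+TFA arrays had 6.13 to 6.31. Of the pancreatic islet markers, a list that holds Ins2 itself, 0 had a mean above the dim level. The islet list averaged 7.12 for TFA replicate 2, at least 6.76 for every raised array, and no more than 5.80 elsewhere. TFA replicate 2 was thus the highest array of this list as well, and it was also a raised array. The part of pancreatic RNA in the Ins2 difference was not tested.

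The 2 genes called higher encode phosphatases known to restrain the pathway. Inpp5d encodes SHIP1, a lipid phosphatase of blood cells related to SHIP2, and was 7.37, 7.03 and 6.59 in TFA, 8.16, 7.48 and 8.04 in MSG+TFA, 9.02, 8.98 and 8.29 in ASP+TFA and 8.62, 8.64 and 8.15 in ASP+MSG+TFA. Every TFA array was below every array of the other diets. The aspartame difference was 1.17 ± 0.19 (limma, adjusted p = 0.0483) and 1.30 ± 0.24 over the 8 arrays that were not raised (limma, adjusted p = 0.894). Over 14 other settings it lay between 0.43 and 1.34, the lowest with the brightest probe set, and Inpp5d was called under 6 of them. Ptpre encodes a tyrosine phosphatase that acts on the insulin receptor, and was 6.35, 6.48 and 6.35 in TFA, 7.16, 7.06 and 7.52 in MSG+TFA, 7.35, 7.87 and 7.42 in ASP+TFA and 7.29, 7.56 and 7.37 in ASP+MSG+TFA. Again every TFA array was the lower, and all were below the dim level, so the size of the difference was limited by dim signal. For Ptpre the aspartame difference was 0.66 ± 0.12 (limma, adjusted p = 0.0483), and 0.54 ± 0.17 over the 8 arrays. It lay between 0.14, with the brightest probe set, and 0.75 over 14 other settings, and Ptpre was called under 4 of them.

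Both were also higher with MSG alone, by 0.90 ± 0.27 for Inpp5d and 0.85 ± 0.17 for Ptpre, without passing the test (limma, adjusted p = 1). Ptpre averaged 6.39 in TFA and 7.55 in ASP+TFA, but 7.25 in MSG+TFA and 7.41 in ASP+MSG+TFA. Inpp5d averaged 7.00 and 8.76, and 7.89 and 8.47. The aspartame difference averages both steps. The interaction was -0.99 for Ptpre and -1.19 for Inpp5d. In it 4 of the 60 genes were lower and 0 higher at an unadjusted p under 0.05 (0.619% and 0.604% of all genes), with none called (0%). The mean of the macrophage markers was higher in each additive diet than in TFA, but the arrays overlapped. It was 9.74 on TFA replicate 2, and 9.29 and 9.32 on replicates 1 and 2 of ASP+TFA. Of the single markers only Trem2 averaged lower in ASP+TFA than in TFA (7.44 against 7.80), and every other marker of the list averaged higher. With the mean of these markers as a covariate the aspartame difference of Inpp5d was 1.33 (limma, adjusted p = 0.0223) and that of Ptpre 0.66 (adjusted p = 0.0546). The cause of these differences was not tested. Inpp4b, a lipid phosphatase that acts on a breakdown product of the PI3-kinase lipid, had a mean below the dim level and was 5.74, 5.97 and 6.08 in TFA, 6.03, 6.45 and 6.70 in MSG+TFA, 6.19, 5.98 and 6.74 in ASP+TFA and 6.77, 7.00 and 6.89 in ASP+MSG+TFA. The diet with both additives was above all other diets on every array, with a difference from TFA of 0.96 ± 0.22 that did not pass the test (limma, adjusted p = 0.122). The brightest probe set of Inpp4b gave -0.99 in that contrast.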

How the data were processed

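Gene expression was measured on 12 Mouse Gene 1.0 ST arrays, with groups and replicate numbers from the sample titles. The deposited values were linear intensity, which the authors had background-corrected and quantile normalized with GCRMA in Partek. The genome build is not given in the sources used here. They were converted to log2. Of the probe sets, 212138 named 1 gene, 4672 several and 24766 none, and the latter groups were left out. Symbols were updated through RefSeq (GRCm38.p6): 17626 were current, 2743 replaced and 53 kept. The median intensity of an array was between 144.9 and 150.6, and the number of arrays limits the precision.

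A linear model with a mean for each diet was fitted over the 12 arrays with limma 3.58.1 in R 4.3.3 (8 residual and 2.73 prior degrees of freedom), two-sided, with Benjamini-Hochberg adjustment over 20358 genes, after the procedure was tested on simulated data. Since RNA was pooled, p-values measure the spread between pools. The genes and lists were chosen with earlier results of these data known. Named were 12 genes chosen by pathway step, each member with an unadjusted p under 0.05 in a contrast against TFA or in the aspartame difference, and the 3 genes of the wider list with the smallest p in each of these 4 contrasts, with Irs4, Hras and Foxo6 added after their values were seen, as they were called. Alternatives were another summary over probe sets, quantile normalization, limits on dim genes, terms for raised arrays, dim signal and marker lists, limma's trend, the methods' analysis of variance, a replicate block, the diets of a contrast alone, the arrays that were not raised, and each array left out. Same-numbered arrays deviated together between TFA and MSG+TFA (correlations of 0.593 to 0.661), but over all 18 pairs correlations ran from -0.549 to 0.661, with 7 under -0.1. In TFA and MSG+TFA replicates 1 and 2 were also the raised arrays, and replicate 2 of both had low Crisp1 (5.60 and 5.75). These correlations therefore cannot show whether the numbers paired the arrays.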

Additional observations from a re-analysis of the deposited data

How the results depend on the processing

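Of 365 summaries of the 31 genes (medians and counts) under settings other than leaving out an array, 286 stayed within the spread or within 1.5 times the count, and 79 moved. Most that moved were small counts. In MSG+TFA minus TFA, the count at an unadjusted p under 0.05, which was 0, became 4 with the raised arrays as a term, 3 with macrophage markers as a covariate, and 1 with the brightest probe set, the arrays that were not raised, epididymis RNA as a term, adipocyte markers, limma's trend or the methods' analysis of variance. In ASP+MSG+TFA minus ASP+TFA and in the MSG difference the same count went from 0 to 1 under several settings, and to 2 for the MSG difference with macrophage markers. In the interaction it went from 0 to 1 with the brightest probe set, the raised arrays as a term, dim signal or adipocyte markers.

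The medians of the aspartame contrasts depended on the raised arrays and on the probe set. With the raised arrays as a term the median was 0.069 in ASP+TFA minus TFA, 0.033 in ASP+MSG+TFA minus TFA, -0.047 in ASP+MSG+TFA minus MSG+TFA and 0.0040 in the aspartame difference, with 2, 1, 0 and 0 genes at an unadjusted p under 0.05. With dim signal as a covariate these medians were 0.050, -0.013, -0.057 and 0.0078, with 0 such genes. Over the arrays that were not raised they were 0.050, 0.017, -0.042 and 0.0040, with 0, 1, 1 and 0. The brightest probe set gave 0.011, 0.048 and 0.019 in the first, second and last of these contrasts, with 4, 3 and 5 genes, and 0 genes against MSG+TFA, where the mean over probe sets gave 1. Quantile normalization of gene values gave 0.17 in ASP+TFA minus TFA, 0.13 in ASP+MSG+TFA minus TFA and 0.079 in the aspartame difference, where 22 genes were above 0. The 2 calls of the aspartame difference became 0 with the mean over probe sets, probe sets or genes above the dim level only, quantile normalization, the raised arrays as a term, dim signal, the arrays that were not raised, adipocyte markers or the methods' analysis of variance, 1 with macrophage markers and 4 with epididymis RNA as a term. With macrophage markers 1 gene was called in each aspartame contrast against TFA. Grb2 was called under 3 of 14 other settings and without 2 of the 12 arrays in turn, as was Tbc1d4. The cause of these changes was not tested.

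With replicate number as a block, 3 of the 31 genes were called in the aspartame difference, beside 15.2% of all genes, and in ASP+MSG+TFA minus MSG+TFA 5 genes had an unadjusted p under 0.05, beside 20.5% of all genes. The counts in ASP+MSG+TFA minus ASP+TFA and in the MSG difference went from 0 to 1, and the block changed no other count of calls among the 31 genes.

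Among values with an unadjusted p under 0.05, directions reversed for 26. With the brightest probe set these were Gsk3b (-0.080), Tbc1d4 (-0.0051), Cbl (-0.11), Grb2 (0.43), Tsc1 (-0.55) and Rictor (-0.050) in ASP+TFA minus TFA, Grb2 (0.38), Tsc1 (-0.41), Rictor (-0.029) and Inpp4b (-0.99) in ASP+MSG+TFA minus TFA, and Grb2 (0.38), Cbl (-0.037), Tsc1 (-0.48), Rictor (-0.091) and Inpp4b (-0.99) in the aspartame difference. The mean over probe sets turned Grb2 in these contrasts (0.091, 0.15 and 0.025), and probe sets above the dim level turned Inpp4b (-0.064). Dim signal as a covariate turned Socs3 (0.032, 0.042 and 0.11), Rptor (-0.017) and, in ASP+MSG+TFA minus TFA, Rictor (-0.076), and the raised arrays as a term or their omission turned Socs3 (0.020). Irs1, Akt1 and Mtor, which had not passed the test, also changed sign over the arrays that were not raised (-0.056, -0.078 and -0.11).

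Leaving out 1 array at a time, the median ran from 0.24 to 0.39 in ASP+TFA minus TFA with 5 to 17 genes at an unadjusted p under 0.05 and 0 to 13 called, from 0.19 to 0.44 in ASP+MSG+TFA minus TFA with 1 to 15 and 0 to 12, and from 0.16 to 0.29 in the aspartame difference with 8 to 17 and 0 to 8. It ran from 0.042 to 0.23 with 0 to 8 genes in MSG+TFA minus TFA, from 0.094 to 0.24 with 1 to 7 in ASP+MSG+TFA minus MSG+TFA, from -0.088 to -0.029 with 0 to 1 in ASP+MSG+TFA minus ASP+TFA, from -0.0077 to 0.095 with 0 to 3 in the MSG difference and from -0.27 to -0.056 with 0 to 6 in the interaction. The F test called 0 to 9. The highest counts in contrasts against TFA came without TFA replicate 3. A fit on the diets of a contrast alone was made for differences of 2 diets only, and Socs3, Ins2 and Inpp4b were not among the genes above the dim level. Signal near the dim level limits the values of Socs3, Ins2, Irs4, Foxo6, Inpp4b and, in TFA, Ptpre.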
